A study of Mus musculus with 8 samples.

Results

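Spliceosome genes outside the SR and hnRNP protein families were followed in the mouse neuroblastoma line N2a with and without overexpression of Nrsn2, which encodes neurensin-2, a small membrane protein of neuronal vesicles. The members were chosen by annotation. They are the protein-coding genes whose deposited Gene Ontology terms hold mRNA splicing via the spliceosome, without genes named Srsf, Hnrnp, Eif, Clk or Srpk, without genes that also hold rRNA processing, and without Snrpn. Of 165 protein-coding genes with the term, 14 were left out by name, 1 by the rRNA processing term and 1 as Snrpn, which left 149 of the 55414 genes in the deposited table. No measured value enters this rule, but the group was proposed with results of the same comparison known. Its counts and medians are therefore given as a description and support no statement about the group. Enough reads for a test were found for 127 members. Of the other 22 members, 17 had no read in any library and 5 had reads, with a highest mean of 0.464 CPM, counts scaled to a common library total. They are mostly predicted genes, and also include Rbm8a2, Ubl5b, Ubl5c and U2af1l4.

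The control group held 4 libraries of N2a cells labelled control. The overexpression group held 4 libraries of N2a cells transfected transiently with an Nrsn2 construct, and all cells were collected 24 hours after transfection. The labels name neither the promoter of the construct nor what the control cells received, and do not say whether replicates came from separate cultures. PolyA RNA was sequenced to between 15347255 and 21395096 counted reads a library. Nrsn2 itself stood at 8.42, 8.53, 6.54 and 10.6 CPM in control libraries 1 to 4 and at 147, 173, 156 and 170.0 CPM in overexpression libraries 1 to 4, a log2 fold change of 4.23 ± 0.11 (SE; edgeR quasi-likelihood test with Benjamini-Hochberg adjustment over all tested genes, adjusted p = 2.89e-15). Of 7 neuronal markers, Stmn2, Tubb3, Gap43, Snap25 and Isl1 were expressed, and Nefl and Nefm stood at no more than 0.273 CPM in any library. The summed level of the 7 was 1281 to 1494 CPM in the control libraries and 936 to 1030 CPM in the overexpression libraries, and 4 of the 5 tested markers were called lower. Of 12 markers of immune, endothelial, astrocyte, epithelial and fibroblast cells, 10 stayed under 2 CPM in every library. The other 2, Pecam1 and Pdgfra, stood at 4.53 to 9.32 CPM and at 5.41 to 7.18 CPM. The summed level of the 3 immune markers was 0.801 to 1.35 CPM in the control and 1.56 to 2.45 CPM in the overexpression libraries, and Cd68 was the only one of the 12 called (edgeR adjusted p = 0.0275, higher). The part of these markers in the results on splicing genes was not tested. In bulk RNA, fewer cells of a type and less RNA per cell cannot be told apart.

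The spliceosome cuts introns out of pre-mRNA and joins the exons. It is built anew on each intron from small nuclear ribonucleoproteins (snRNPs). The U1 snRNP pairs with the donor site, the U2 snRNP with the branch site, and the U4/U6.U5 tri-snRNP then joins. The Prp19 complex and a series of RNA helicases turn the assembly into its catalytic form. A separate minor spliceosome removes a small class of U12-type introns. Neurons add tissue-specific regulators such as the Nova proteins, which decide which exons are kept.

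Most of the tested members stood a little higher in the overexpression libraries. With an adjusted p under 0.05 as the call, 61 of the 127 tested members (48.0%) were called higher and 8 (6.30%) were called lower, and 58 were not called. Over all 15187 tested genes, 18.6% were called higher and 16.8% were called lower. The counts by role class below are to be read beside these shares. The median log2 fold change was 0.22 over the members and -0.00088 over all tested genes, and 102 of the 127 members lay above 0. The changes were small. Log2 fold changes ran from -0.67 to 0.82, the median size among the 69 called members was 0.34, and 9 called members changed by more than 1.5-fold. In 52 members every overexpression library lay above every control library, and in 8 members every overexpression library lay below. Over all tested genes these shares were 17.2% and 15.4%.

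The level of the members was also described library by library. The median member, on a log2 CPM scale set to the control mean of each gene, stood at 0.0056, 0.044, 0.041 and -0.073 in control libraries 1 to 4. It stood at 0.15, 0.18, 0.23 and 0.24 in overexpression libraries 1 to 4, and the groups did not overlap. The scale places the control libraries around 0 by construction. The same median over all tested genes was not made for comparison. The summed level of all members was 13546, 13669, 13676 and 12852 CPM in the control libraries and 14818, 15265, 15564 and 15576 CPM in the overexpression libraries. Control library 4 was the lowest and stood apart from the other 3. Without that library, 54 members were called higher and 6 lower, and the median log2 fold change was 0.18. Hspa8, a constitutive chaperone that carries the splicing annotation, was named for its level after the values were seen and made up the largest single share of the sum. Without it the sum was 11159 to 11855 CPM in the control libraries and 12696 to 13379 CPM in the overexpression libraries.

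**Figure D1:**
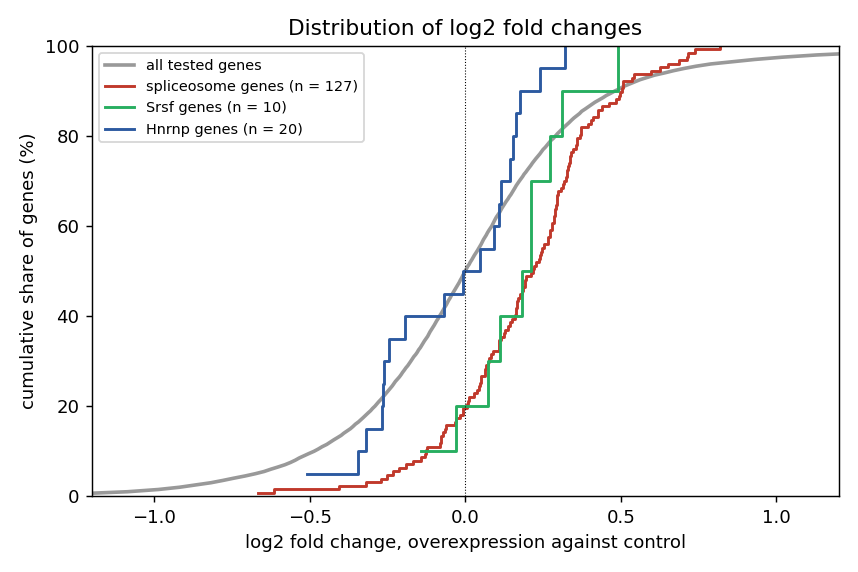
The cumulative share of genes (%) is plotted against the log2 fold change of overexpression over control for 127 tested spliceosome genes, 10 Srsf genes, 20 Hnrnp genes and all 15187 tested genes. The curve of the spliceosome genes crosses the middle of its height at 0.22 and that of all genes close to 0.

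The largest called rises were those of Ccdc130 and Syf2, and Nova2 had the largest called fall among members with a mean of at least 5 CPM. Their promoter sequences are shown because these genes mark the ends of the range. They are the 250 bases before the annotated start in RefSeq on GRCm38.p6, an older build than that of the deposited table, printed 5′ to 3′ along the gene. The Syf2 window is chr4:134930730-134930979 on the plus strand, the Ccdc130 window chr8:84270403-84270652 on the minus strand and the Nova2 window chr7:18925638-18925887 on the plus strand. Capitals mark matches on either strand to the ETS-type motif CCGGAAG, the SP1-type motif GGGCGG and the CCAAT box.
Syf2: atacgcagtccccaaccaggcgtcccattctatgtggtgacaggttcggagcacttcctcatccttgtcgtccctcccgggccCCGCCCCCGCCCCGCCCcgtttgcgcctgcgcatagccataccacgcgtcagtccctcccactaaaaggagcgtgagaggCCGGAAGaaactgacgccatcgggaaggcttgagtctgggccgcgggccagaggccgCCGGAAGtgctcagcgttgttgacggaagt
Ccdc130: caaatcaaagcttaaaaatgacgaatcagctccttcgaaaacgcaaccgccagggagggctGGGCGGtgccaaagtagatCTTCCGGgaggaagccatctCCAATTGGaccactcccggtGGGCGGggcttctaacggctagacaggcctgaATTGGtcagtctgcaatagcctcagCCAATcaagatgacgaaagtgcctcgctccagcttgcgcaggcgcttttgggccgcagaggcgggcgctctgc
Nova2: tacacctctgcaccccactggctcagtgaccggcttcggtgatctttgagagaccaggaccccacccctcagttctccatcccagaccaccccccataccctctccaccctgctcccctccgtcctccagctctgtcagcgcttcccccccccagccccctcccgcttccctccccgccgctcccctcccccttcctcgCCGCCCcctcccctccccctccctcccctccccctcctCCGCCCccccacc
The Syf2 window held the ETS-type motif 87 and 30 bases before the start, and SP1-type matches at 167, 161 and 156 bases, the last pair of which share a base. The Ccdc130 window held the ETS-type motif 170 bases before the start, SP1-type matches at 189 and 130 bases, and CCAAT boxes at 150, 147, 98 and 73 bases, the first pair of which overlap. The Nova2 window held SP1-type matches at 51 and 13 bases before the start and neither of the other motifs.

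RefSeq promoters were matched by symbol for 100 of the 149 members, 45 of them called. They covered 37 of the 61 members called higher, all 8 called lower and 52 of the 58 tested and not called. The coverage thus differed by call, and the shares below leave out many members called higher. The ETS-type motif was found in 33 of these 100 members and in 10.2% of the 17492 protein-coding genes in the promoter table. Those genes were not limited to genes tested here, so the 2 shares cover unlike sets. Among members with a promoter it was found in 19 of 37 called higher (51.4%), 12 of 52 tested and not called (23.1%) and 2 of 8 called lower. The SP1-type motif was found in 53 of the 100 members and in 45.8% of all genes, and the CCAAT box in 40 members and 39.5% of all genes. The other motifs did not share the ETS split by call. The SP1-type motif was in 54.1% of members called higher, 55.8% of those not called and 50% of those called lower. For the CCAAT box these shares were 29.7%, 50% and 25%. The NRF1-type motif GCGCATGC was in 8 members (3.32% of all genes), the E-box CACGTG in 4 (7.61%) and the CRE TGACGTCA in 7 (2.2%). Among members called higher and not called, the NRF1-type motif was in 5.41% and 9.62% and the CRE in 8.11% and 7.69%. All 4 members with the E-box were called higher. Both strands were searched, a gene counted if any of its listed starts held the motif, and no test was made. A match describes the letters of the window and is no evidence of binding.

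**Figure D2:**
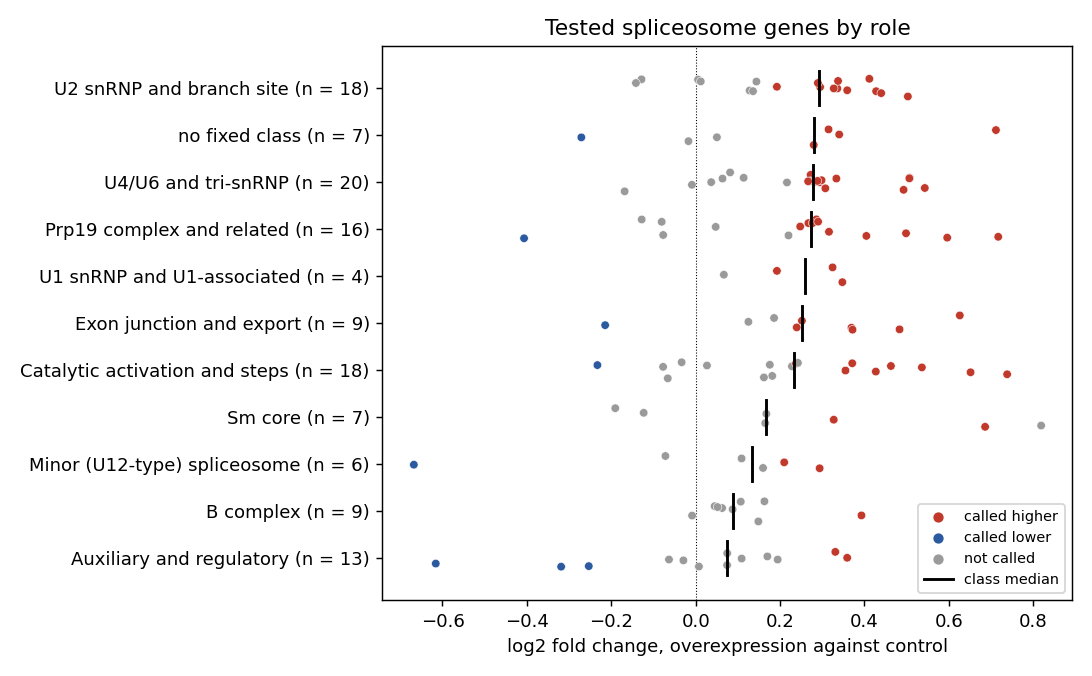
Each point is 1 tested spliceosome gene, placed by its log2 fold change (x axis) and its role (y axis, with the number of tested genes), in red for called higher, blue for called lower and grey for not called. Black bars are class medians, which run from 0.07 for auxiliary and regulatory genes to 0.29 for the U2 snRNP.

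The U1 snRNP opens splicing at the donor site. Of its 4 tested genes, 3 rose and none fell, with a median log2 fold change of 0.26. Snrpa, which encodes the U1A protein, stood at 30.02, 45.1, 39.3 and 43.7 CPM in control libraries 1 to 4 and at 42.8, 53.3, 50.03 and 51.9 CPM in overexpression libraries 1 to 4. Its groups overlapped only through overexpression library 1, which lay below control libraries 2 and 4. The log2 fold change of Snrpa came to 0.32 ± 0.11 (SE; edgeR adjusted p = 0.0223), and it was 0.21 (adjusted p = 0.0796) without control library 1, the lowest of the 8. Snrpc, a U1 zinc-finger protein that steadies pairing with the donor site, stood at 10.3, 14.8, 12.02 and 12.6 CPM in the control and at 14.001, 16.97, 16.2 and 16.2 CPM in the overexpression libraries. Again 1 overexpression library lay within the control range, and the log2 fold change was 0.35 ± 0.11 (SE; edgeR adjusted p = 0.0197). Each of these calls was lost when any of 3 single libraries was left out. Without overexpression library 2 or 4, or control library 1 or 3, 1 of the 4 genes was called higher. Snrnp70, which encodes the U1-70K protein and was picked after its values were seen, was not called.

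The Sm proteins form the ring shared by most snRNPs. Of their 7 tested genes, 2 rose, none fell and 5 were not called. Snrpb (ENSMUSG00000027404, GRCm39 chromosome 2, 130013555 to 130021323, minus strand) encodes SmB, and its level was 15.1, 18.2, 18.4 and 16.01 CPM in control libraries 1 to 4 and 27.5, 27.7, 25.98 and 27.8 CPM in overexpression libraries 1 to 4. Every overexpression library lay well above every control library. The log2 fold change of Snrpb was 0.69 ± 0.09 (SE; edgeR adjusted p = 1.38e-05). Snrpd2, which encodes SmD2, stood at 71.2, 81.1, 83.1 and 74.96 CPM in the control libraries and 90.9, 99.4, 97.3 and 102 CPM in the overexpression libraries, and its groups did not overlap either (log2 fold change 0.33 ± 0.07, SE; edgeR adjusted p = 0.001). The levels of the other Sm genes overlapped between the groups.

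Snrpd3, which encodes SmD3, had the highest log2 fold change of all members, 0.82 ± 0.34 (SE; edgeR adjusted p = 0.0655), and was not called. It is described because of 1 library, a choice made after its values were seen. It stood at 30.5, 34.6, 25.5 and 30.2 CPM in control libraries 1 to 4, at 123 CPM in overexpression library 1 and at 34.0, 30.2 and 26.9 CPM in overexpression libraries 2 to 4. Only overexpression library 1 was high, and the other 3 lay within the control range. Without that library the log2 fold change was 0.0084 (edgeR adjusted p = 0.955), while without overexpression library 2, 3 or 4 it passed the threshold at 0.99 to 1.04. Snrpd3 overlaps Gucd1 in the table, and since the kit does not keep strand, their reads cannot be separated where they overlap. Per kilobase of the longest transcript, control levels of the Sm genes ran from 0.707 CPM for Snrpf to 105 CPM for Snrpd1. The treatment of reads that match several places is not given in the sources used here, so levels of genes with near-identical copies elsewhere are uncertain.

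The U2 snRNP and the branch site factors select the branch point. Of 18 tested genes 11 rose and none fell, with a median log2 fold change of 0.29. Sf1 (ENSMUSG00000024949, GRCm39 chromosome 19, 6413720 to 6428060, plus strand), the protein that binds the branch point first, was at 205, 195, 202 and 203 CPM in control libraries 1 to 4 and at 289, 276, 259 and 259.9 CPM in overexpression libraries 1 to 4. The control libraries lay close together and every overexpression library was higher. Its log2 fold change was 0.43 ± 0.06 (SE; edgeR adjusted p = 3.77e-05). Sf3b4, a subunit of the SF3b complex that clamps U2 on the branch site, was at 19.1, 22.3, 19.1 and 17.7 CPM and 24.04, 26.6, 24.99 and 28.4 CPM, again without overlap (log2 fold change 0.41 ± 0.09, SE; edgeR adjusted p = 0.00186). The other called genes, listed after their values were seen, were Sf3a1, Sf3a2, Sf3a3, Sf3b2, Sf3b3, Sf3b5, Phf5a and both subunits of the U2AF dimer, U2af1 and U2af2. The calls of Sf3b2 and Sf3b5 were each lost when any of 3 single libraries was left out, with edgeR adjusted p up to 0.0715 and 0.111. Sf3b1, the large scaffold of SF3b, also picked after its values were seen, had overexpression libraries that all lay under the control range, at 653, 603, 611 and 607 CPM and 516, 581, 591 and 576 CPM, but was not called (log2 fold change -0.13 ± 0.06, SE; edgeR adjusted p = 0.133). Snrpb2, the U2-B″ protein, was at 87.5, 89.5, 101 and 80.4 CPM and 92.1, 78.3, 92.7 and 97.9 CPM, with overlapping groups.

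The tri-snRNP brings the U6 snRNA that later sits in the catalytic centre. Of 20 tested genes 12 rose and none fell, and the median log2 fold change was 0.28. Lsm4 and Lsm7 encode members of the Lsm ring on the end of U6. Lsm7 (ENSMUSG00000035215, GRCm39 chromosome 10, 80688655 to 80691043, minus strand) was at 46.4, 57.6, 60.1 and 55.5 CPM in control libraries 1 to 4 and at 74.9, 78.9, 75.3 and 82.9 CPM in overexpression libraries 1 to 4 (log2 fold change 0.51 ± 0.08, SE; edgeR adjusted p = 8.01e-05). Lsm4 was at 25.4, 36.4, 30.9 and 28.7 CPM and 44.7, 42.6, 43.1 and 46.5 CPM (log2 fold change 0.54 ± 0.09, SE; edgeR adjusted p = 0.000227). In both genes the groups were separate. Of the other Lsm members, Lsm2, Lsm3, Lsm5 and Lsm8 were not called, so the ring genes did not all pass the test. Prpf3, a U4/U6 protein, was at 97.6, 93.2, 98.5 and 90.3 CPM and 116, 147, 138 and 138 CPM (log2 fold change 0.51 ± 0.07, SE; edgeR adjusted p = 3.81e-05), and its overexpression library 1 was the lowest of the 4. The U5 helicase gene Snrnp200 and the U5 GTPase gene Eftud2, picked for their known roles after the values were seen, rose with log2 fold changes of 0.31 and 0.27. Prpf8, the central U5 scaffold, picked in the same way, had overlapping groups and a log2 fold change of 0.06 ± 0.07 (SE), with an edgeR adjusted p of 0.49. Usp39, picked after its values were seen, was called higher at 0.27 ± 0.10 (SE; edgeR adjusted p = 0.0378). It stood at 77.8, 56.2, 57.5 and 54.8 CPM in overexpression libraries 1 to 4. Without overexpression library 1 its log2 fold change was 0.14 and the call was lost (edgeR adjusted p = 0.131). The call was also lost without control library 1, 3 or 4, with edgeR adjusted p of 0.0981, 0.0600 and 0.0847.

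**Figure D3:**
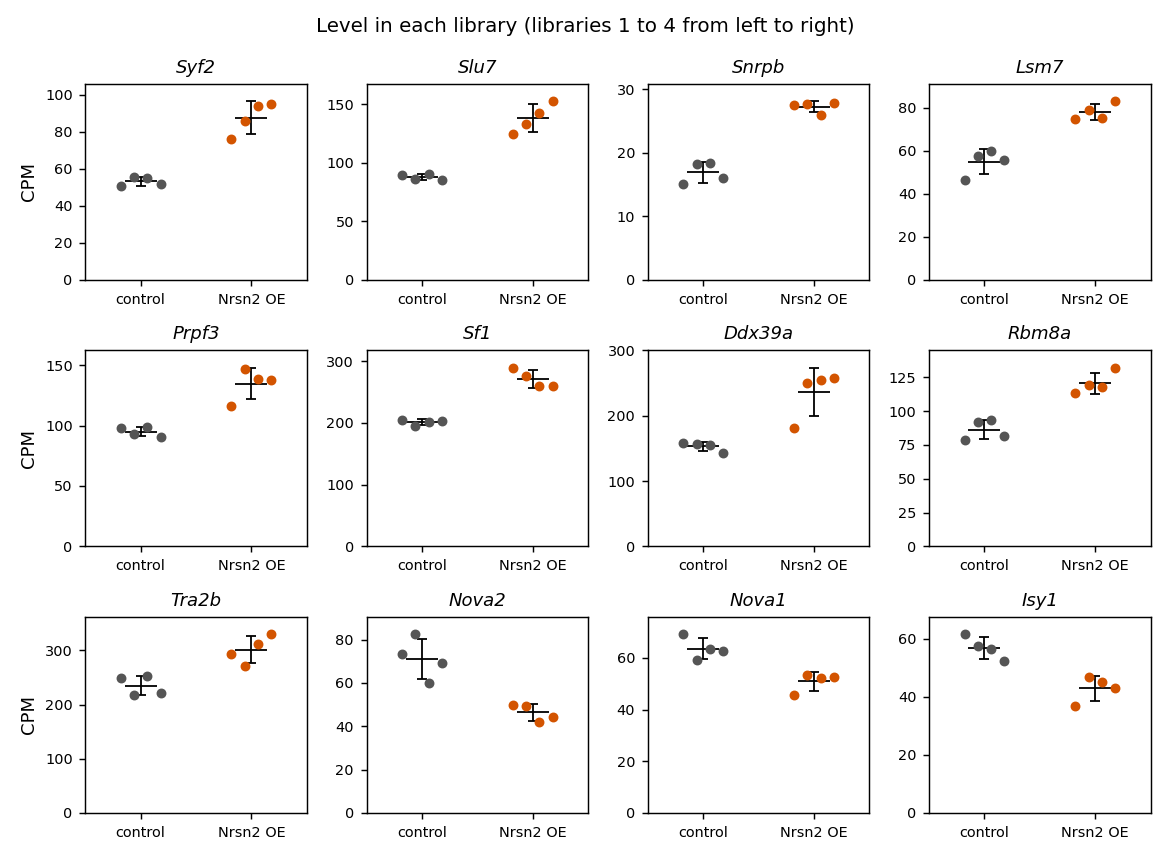
Levels in CPM (y axes, starting at 0) of 12 spliceosome genes are shown for control (grey) and overexpression (orange) libraries, with libraries 1 to 4 from left to right in each group and bars giving the mean ± SD (n = 4). In each of the 12 genes the groups do not overlap, and Nova2, Nova1 and Isy1 are the 3 with lower overexpression libraries.

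Proteins of the B complex hold the assembled spliceosome just before activation. Here 1 of 9 tested genes rose, none fell, and the median log2 fold change was 0.09. The share called higher, 11.1%, lay below the 18.6% over all tested genes. The gene that rose was Ubl5, a ubiquitin-like protein, at 21.9, 26.6, 24.8 and 23.1 CPM in control libraries 1 to 4 and 35.2, 26.9, 32.9 and 31.7 CPM in overexpression libraries 1 to 4 (log2 fold change 0.39 ± 0.09, SE; edgeR adjusted p = 0.00317). Its highest control library lay just under its lowest overexpression library. Zmat2 came nearest of the others, at a log2 fold change of 0.16 ± 0.07 (SE) with an edgeR adjusted p of 0.0825. Prpf38a and Prpf38b had log2 fold changes of -0.01 and 0.06, and the near-identical pair Mfap1a and Mfap1b of 0.04 and 0.11, all with overlapping groups. With offsets for transcript GC content and length in the fit, 3 of the 9 genes were called higher, among them Prpf38b at 0.21 (edgeR adjusted p = 0.00585) and Zmat2 at 0.17 (adjusted p = 0.0486). Prpf38a was at 0.11 in that fit and was not called. Without overexpression library 1, 2 of the 9 were called higher.

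The Prp19 complex and its partners stabilise the activated spliceosome. Of 16 tested genes 10 rose and 1 fell, with a median log2 fold change of 0.27. Syf2 (ENSMUSG00000028821, GRCm39 chromosome 4, 134658209 to 134664859, plus strand), a Prp19-associated protein whose promoter is printed above, was at 50.9, 55.5, 55.3 and 51.6 CPM in control libraries 1 to 4 and at 75.9, 85.7, 93.9 and 94.9 CPM in overexpression libraries 1 to 4. All overexpression libraries were far above all control libraries, and overexpression library 1 was the lowest of them. The log2 fold change of Syf2 was 0.72 ± 0.08 (SE; edgeR adjusted p = 2.03e-06). Bcas2, a core subunit of the complex, was at 58.9, 64.3, 62.1 and 56.5 CPM and 83.3, 73.02, 79.1 and 84.6 CPM (log2 fold change 0.40 ± 0.07, SE; edgeR adjusted p = 0.000227). Ppie, a cyclophilin of the catalytic spliceosome, was a low gene at 4.41, 5.65, 6.07 and 5.58 CPM and 8.65, 7.87, 9.20 and 7.11 CPM (log2 fold change 0.60 ± 0.13, SE; edgeR adjusted p = 0.0021). Neither gene's groups overlapped. Isy1 (ENSMUSG00000030056, GRCm39 chromosome 6, 87791251 to 87815780, minus strand), another Prp19-associated protein, fell from 61.4, 57.3, 56.5 and 52.3 CPM in the control to 36.7, 46.6, 45.1 and 42.9 CPM in the overexpression libraries (log2 fold change -0.41 ± 0.08, SE; edgeR adjusted p = 0.000813). It was the only gene of the class called lower without sequence offsets. With offsets for transcript GC content and length in the fit, 2 genes of the class were called lower. Prpf19, the ubiquitin ligase that names the complex, picked after its values were seen, was at 61.9, 82.9, 54.6 and 58.9 CPM and 77.2, 60.6, 56.5 and 50.8 CPM and was not called.

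Genes of catalytic activation and of the cutting and joining steps numbered 18 tested, of which 8 rose and 1 fell, with a median log2 fold change of 0.23. Slu7 (ENSMUSG00000020409, GRCm39 chromosome 11, 43324571 to 43338808, plus strand), which acts in exon joining, was at 89.99, 86.02, 90.8 and 85.2 CPM in control libraries 1 to 4 and 124, 133, 143 and 153 CPM in overexpression libraries 1 to 4. The control libraries lay within a few CPM of each other and every overexpression library was higher (log2 fold change 0.65 ± 0.07, SE; edgeR adjusted p = 1.87e-06). Ccdc130 (ENSMUSG00000004994, GRCm39 chromosome 8, 84984424 to 84997009, minus strand), a relative of the step factor Yju2, was at 9.71, 9.74, 10.01 and 9.55 CPM and 13.3, 18.3, 17.7 and 15.7 CPM (log2 fold change 0.74 ± 0.11, SE; edgeR adjusted p = 5.76e-05). Bud13, of the retention and splicing complex known from yeast, was at 9.12, 9.11, 9.08 and 9.74 CPM and 13.3, 12.7, 14.9 and 12.9 CPM (log2 fold change 0.54 ± 0.10, SE; edgeR adjusted p = 0.000439). None of these 3 genes had overlapping groups. Cdc40, a factor of exon joining like Slu7, went the other way, at 162, 159, 154 and 174 CPM and 147, 133, 139.8 and 133 CPM (log2 fold change -0.23 ± 0.06, SE; edgeR adjusted p = 0.00713), and every overexpression library lay below the control libraries. It overlaps a copy of the abundant noncoding RNA 7SK. Among the RNA helicases that drive the steps, named here after their values were seen, Dhx38 (0.43) and Dhx16 (0.24) rose in log2 fold change, and Dhx8 (0.18) was not called. The call of Dhx16 was lost when any of 7 single libraries was left out, with edgeR adjusted p up to 0.132.

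Genes of the exon junction complex, the cap-binding complex and mRNA export handle the spliced product. Of 9 tested genes 6 rose and 1 fell, with a median log2 fold change of 0.25. Rbm8a (ENSMUSG00000038374, GRCm39 chromosome 3, 96537249 to 96541107, plus strand), the Y14 protein of the exon junction core, was at 78.7, 91.7, 93.3 and 81.96 CPM in control libraries 1 to 4 and 114, 119, 118 and 132 CPM in overexpression libraries 1 to 4 (log2 fold change 0.48 ± 0.07, SE; edgeR adjusted p = 5.4e-05). Its groups were separate. The paralogous export helicases Ddx39a and Ddx39b both rose. Ddx39a (ENSMUSG00000005481, GRCm39 chromosome 8, 84441806 to 84453521, plus strand) was at 158, 157, 156 and 143 CPM and 181, 251, 255 and 258 CPM, with overexpression library 1 well below the other 3 and still above every control library (log2 fold change 0.63 ± 0.09, SE; edgeR adjusted p = 4.88e-05). Ddx39b was at 160.0, 159, 151 and 159.7 CPM and 184, 220.4, 198.9 and 211 CPM (log2 fold change 0.37 ± 0.06, SE; edgeR adjusted p = 0.000277). Ncbp1, the large cap-binding subunit, was lower, at 90.2, 92.7, 92.1 and 80.2 CPM and 70.5, 79.2, 78.04 and 78.1 CPM (log2 fold change -0.21 ± 0.07, SE; edgeR adjusted p = 0.0181). Its groups came within a few CPM of each other, and the call was lost without control library 2 (adjusted p = 0.0539) or 3 (0.0548). Its small partner Ncbp2, picked after its values were seen, was called higher, with a log2 fold change of 0.25, a call that was lost when any of 3 single libraries was left out.

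The minor spliceosome had 6 tested members, of which 2 rose and 1 fell, with a median log2 fold change of 0.13. Zcrb1, a protein of the U11/U12 snRNP, was at 213, 245, 236 and 214 CPM in control libraries 1 to 4 and 258, 256, 277 and 259 CPM in overexpression libraries 1 to 4, a small rise (log2 fold change 0.21 ± 0.06, SE; edgeR adjusted p = 0.016). The call was lost without overexpression library 3, control library 1 or control library 4, with adjusted p from 0.0559 to 0.0624. Zrsr1, a low-level relative of the acceptor-site factor Zrsr2, was at 2.24, 2.19, 2.47 and 2.55 CPM and 1.84, 1.77, 0.935 and 1.38 CPM (log2 fold change -0.67 ± 0.22, SE; edgeR adjusted p = 0.0242). Its overexpression libraries all lay below its control libraries. Zrsr1 overlaps Commd1, and its call was lost without overexpression library 3 (adjusted p = 0.0867), overexpression library 4 or control library 4. Zrsr2 itself was at 109.5, 109, 110.1 and 100.2 CPM and 107, 107, 124 and 125 CPM and was not called (log2 fold change 0.11), but with offsets for transcript GC content and length it was called higher at 0.18 (edgeR adjusted p = 0.0309). The second gene that rose was Rnpc3, another U11/U12 protein, named after its values were seen, whose log2 fold change was 0.29 ± 0.10 (SE; edgeR adjusted p = 0.0299). Its call was lost when any of 4 single libraries was left out, with adjusted p up to 0.108. Without control library 4 no minor spliceosome member was called in either direction. Of 6 tested minor spliceosome genes that lack the Gene Ontology term and come from a list of splicing genes chosen by role, 5 were called higher. None of these genes was called lower. That also held for the catalytic, U2, tri-snRNP, B complex and Prp19 genes on the list, given further below. The share called higher was 83.3%, against 22.2% to 66.7% in the other classes of the list.

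Auxiliary and regulatory proteins, which choose among splice sites, had the lowest class median, 0.07, with 2 of 13 tested genes called higher and 3 lower. These shares, 15.4% and 23.1%, lay near the 18.6% and 16.8% over all tested genes. Nova2 (ENSMUSG00000030411, GRCm39 chromosome 7, 18659813 to 18699244, plus strand), a neuronal RNA-binding protein that controls exon choice, was at 73.2, 82.3, 60.1 and 68.9 CPM in control libraries 1 to 4 and at 49.8, 49.5, 41.98 and 44.5 CPM in overexpression libraries 1 to 4. Every overexpression library was below every control library (log2 fold change -0.62 ± 0.09, SE; edgeR adjusted p = 4.61e-05). Its paralog Nova1 was at 69.04, 59.3, 63.3 and 62.6 CPM and 45.6, 53.4, 52.01 and 52.6 CPM, also without overlap (log2 fold change -0.32 ± 0.07, SE; edgeR adjusted p = 0.00238). With offsets for transcript GC content and length in the fit, the value of Nova1 was -0.13 (adjusted p = 0.130) and that of Rsrc1, an arginine- and serine-rich protein, -0.07 (adjusted p = 0.319), against -0.25 (adjusted p = 0.00366) without them. Nova2 kept its call in that fit, in which 4 of the 13 genes were called higher and 1 lower. The neuronal markers Stmn2, Gap43, Snap25 and Isl1 were called lower in the same libraries and Tubb3 was not called. Whether they bear on the fall of the Nova genes was not tested. Tra2b, an SR-like activator of exons, rose from 249, 219, 252 and 221 CPM to 294, 271, 312 and 329.6 CPM (log2 fold change 0.36 ± 0.07, SE; edgeR adjusted p = 0.000947). Rbm10 also rose, by 0.33 ± 0.08 on the log2 scale (SE; edgeR adjusted p = 0.00367), and the groups did not overlap in either gene.

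A further 7 tested members had no assigned role in the spliceosome, and 4 of them rose and 1 fell. Rbm19, best known from ribosome production in the nucleolus, was at 11.4, 12.9, 11.1 and 11.5 CPM in control libraries 1 to 4 and 19.7, 20.2, 17.3 and 19.6 CPM in overexpression libraries 1 to 4, with no overlap (log2 fold change 0.71 ± 0.09, SE; edgeR adjusted p = 1.98e-05). The m6A methyltransferase subunits Mettl3 and Mettl14, named after their values were seen, were called higher with log2 fold changes of 0.34 and 0.28. Usp49, a histone H2B deubiquitinase, was called lower at 24.01, 18.97, 19.96 and 22.6 CPM and 18.2, 16.7, 19.2 and 16.9 CPM (log2 fold change -0.27 ± 0.09, SE; edgeR adjusted p = 0.0312). Its groups overlapped, it overlaps Tomm6 and Gm20517, and its call was lost when any of 4 single libraries was left out. Dbr1, the enzyme that opens excised intron lariats, likewise named after its values were seen, had a log2 fold change of 0.05 and was not called.

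Several members come in related pairs, and the ratio of 2 related genes within a library compares them on the same RNA. Over 12 pairs in 10 families, the log2 ratios of the groups were compared by two-sided exact permutation over all 70 arrangements of the libraries, which can give no p below 0.0286. The Tra2a to Tra2b log2 ratio was -0.26, -0.17, -0.32 and -0.23 in control libraries 1 to 4 and -0.59, -0.59, -0.70 and -0.66 in overexpression libraries 1 to 4. The overexpression libraries all lay below, by 0.39 on average (exact p = 0.0286, adjusted over the pairs 0.0857). Tra2b had risen while Tra2a stood at a log2 fold change of -0.03 ± 0.06 (SE), with an edgeR adjusted p of 0.751. The ratios of Rbm10 to Rbm5 and to Rbm6 were both higher in every overexpression library, by 0.25 on the log2 scale (exact p = 0.0286 and adjusted p = 0.0857 for each). The Zrsr1 to Zrsr2 log2 ratio was lower by 0.82 on average, with the same exact and adjusted p. No pair passed an adjusted p of 0.05, which the smallest p of this design made hard to reach. The Ddx39a to Ddx39b log2 ratio differed by 0.25 (exact p = 0.0857, adjusted 0.171), that of Txnl4a to Txnl4b by 0.27 (exact p = 0.0857, adjusted 0.171) and that of Nova1 to Nova2 by 0.29 (exact p = 0.114, adjusted 0.196). In these 3 pairs the groups overlapped. Pairs of near-identical genes such as Mfap1a and Mfap1b or Rbm4 and Rbm4b can share reads, so their ratios are uncertain.

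**Figure D4:**
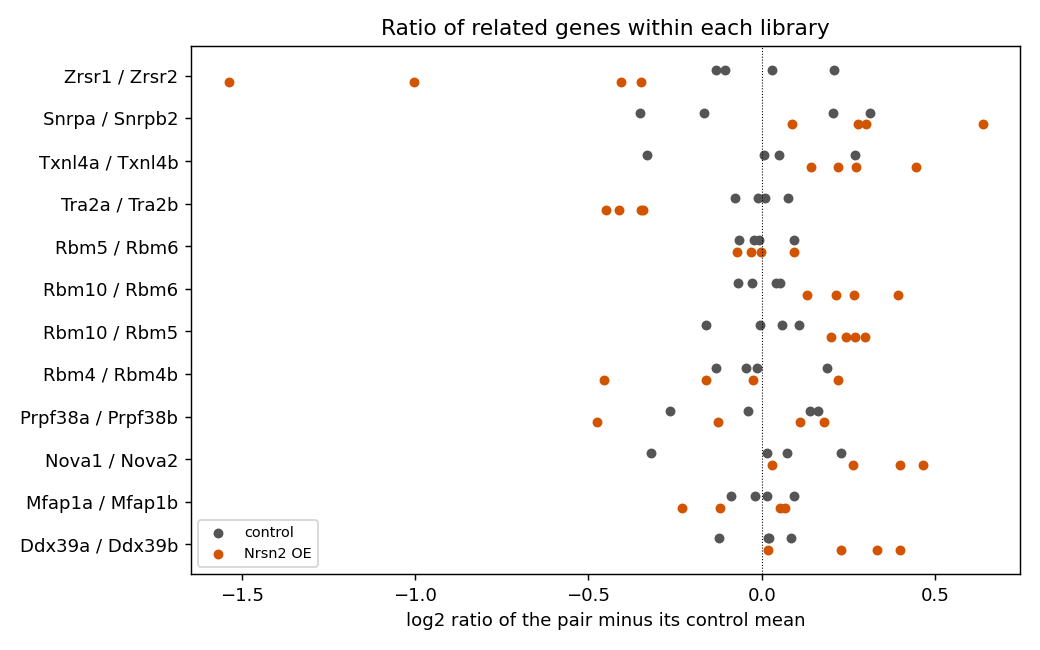
For 12 pairs of related spliceosome genes (y axis), the log2 ratio of their levels within each library, minus the mean of the control libraries, is plotted (x axis) for control libraries in grey and overexpression libraries in orange. The overexpression libraries lie apart from the control libraries in the Tra2a/Tra2b, Rbm10/Rbm5, Rbm10/Rbm6 and Zrsr1/Zrsr2 pairs.

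The relation of the changes to transcript composition is given as a description, with no p, because genes share libraries. Across the 127 tested members the log2 fold change had a Pearson r of 0.37 and a Spearman rho of 0.44 with the GC content of the longest transcript. Across 12206 protein-coding genes these were 0.15 and 0.19. With protein-coding genes cut by GC into 3 groups of equal size, 16 of 52 members in the lowest group were called higher, 23 of 46 in the middle group and 22 of 29 in the highest group. Over protein-coding genes the shares called higher in these groups were 12.9%, 22.3% and 25.7%. With log2 transcript length the members' r was -0.20, against -0.13 over protein-coding genes. With offsets for GC content and length in the fit, 65 members were called higher and 7 lower and the median log2 fold change was 0.20. Of these, 56 called higher and 6 called lower were also called so without the offsets.

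**Figure D5:**
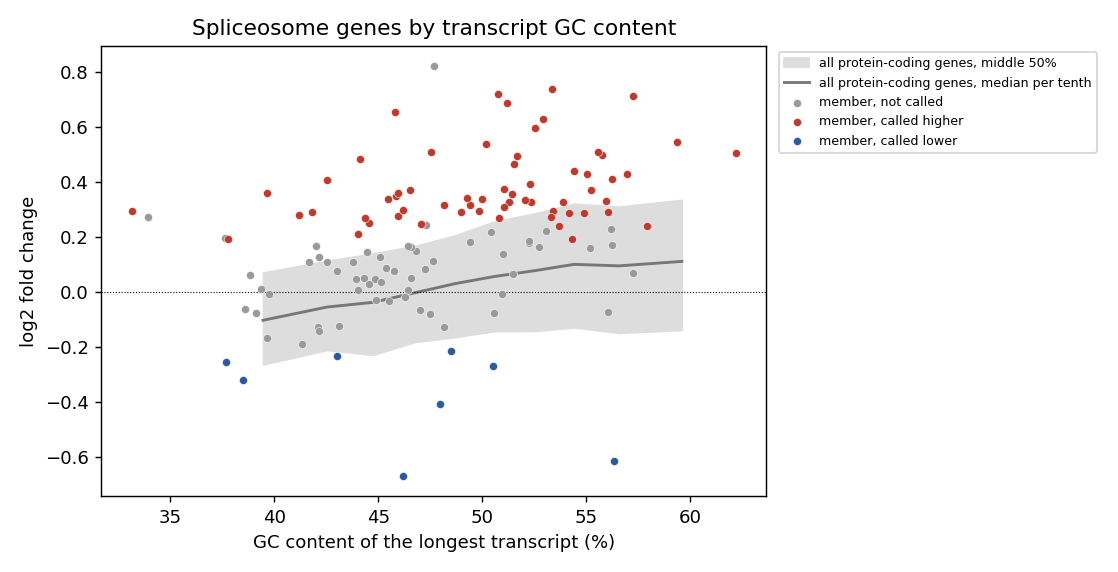
The log2 fold change of each tested spliceosome gene (y axis) is plotted against the GC content of its longest transcript in percent (x axis), in red for called higher, blue for called lower and grey for not called. The line and band give the median and the middle 50% of all protein-coding genes in 10 groups of equal size by GC content, and the median runs from -0.10 in the lowest group to 0.11 in the highest.

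Levels in the control libraries differed widely between members. Per kilobase of the longest transcript, the middle 50% of the tested members lay between 8.96 and 43.0 CPM in the control libraries, with a median of 22.2 CPM, and Hspa8 was the highest at 563 CPM. Across members, the log2 fold change had a Pearson r of 0.03 with the log2 mean CPM. Of the 127 tested members, 54 overlap another counted gene in the deposited table. Beyond those marked above, they include Ddx39a, Ppie, Ubl5, Snrpa, Rbm10, Rsrc1, Isy1, Ncbp1 and Nova1. The limit on unstranded reads given for Snrpd3 holds for these genes too. Among the 73 that overlap none, 37 were called higher and 1 lower, and among the 54 that do, 24 were called higher and 7 lower. Overlaps were looked up for members only, so no share over all tested genes stands beside these counts. Whether the overlaps bear on the calls was not tested. The only member without an overlapping gene that was called lower was Nova2.

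The SR and hnRNP families, which the rule leaves out, are set beside the members by their counts, and no difference was tested. Over all tested genes, 18.6% were called higher and 16.8% lower. Of 10 tested Srsf genes, which encode classical SR activators, 5 were called higher and none lower, and the median log2 fold change was 0.20, close to the 0.22 of the members. Of 20 tested Hnrnp genes, which encode proteins that coat nascent RNA, 2 were called higher and 8 lower, with a median of 0.02. Splicing genes on the role list that are not members numbered 159 tested, of which 63 were called higher and 16 lower, with a median of 0.14. Among them, 21 tested genes of snRNP assembly had 10 higher and 2 lower. Auxiliary and regulatory genes had 22 higher and 11 lower of 68 (32.4% and 16.2%). U1 genes had 2 higher and 2 lower of 9 (22.2% each), near the shares over all tested genes. Exon junction and export genes had 8 higher and 1 lower of 14. The remaining classes had none lower. Higher were 9 of 24 genes of catalytic activation and steps, 5 of 6 minor spliceosome genes and 2 of 7 U2 genes. So were 2 of 5 tri-snRNP genes, 2 of 3 B complex genes and 1 of 2 Prp19 genes.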

How the data were processed

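One table of the whole series was used. Named in the submitters' processing notes are the build GRCm39 and the tools DESeq2 1.36.0, HTSeq 2.01, TopHat2 2.1.1 and cutadapt 2.10. The roles of the tools, the annotation release and the strand setting are unknown, not given in the sources used. Whole-number read counts per gene and library were deposited by the authors, per the file headers, and were the input of all tests. Per the file headers, the deposited table also holds normalized counts, a signal made by dividing counts by DESeq2 size factors, and the authors' comparison as a log2 fold change, a Wald statistic (a score), a p-value and an adjusted p-value. These were used to set the authors' calls beside the new ones. The libraries are labelled as polyA RNA from an unstranded kit.

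Counts of 4 control and 4 overexpression libraries (15347255 to 21395096 counts) were compared with the edgeR 4.0.16 quasi-likelihood test (R 4.3.3) with TMM normalization, no covariate and filterByExpr at a minimum count of 10, which kept 15187 genes. Benjamini-Hochberg adjustment ran over all of these genes, and genes with an adjusted p under 0.05 were called. Standard errors were derived from the test statistic, and the common biological coefficient of variation was 0.0862. Levels are TMM-scaled CPM. On simulated data with 200 changed genes, of which 14945 genes in all passed the filter, the test called 73% of genes changed 1.5-fold and 92% of genes changed 2-fold. Unchanged genes made up 4.07% of its calls. The changed genes were a far smaller share than the 18.6% called higher and 16.8% called lower in the real data. The adjusted p depends on that share, so the rates may differ for these data. Every simulated gene had the same coefficient of variation, and no change under 1.5-fold was simulated. The rates therefore do not describe smaller changes, such as those of most called members. Separate cultures are not stated for the replicates, and p-values then measure only the spread between these libraries, which may be technical.

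The members, role classes, related pairs, markers and motifs were chosen with earlier results of these data known. The genes described by name include the 10 largest called rises with a mean of at least 5 CPM. The rule allowed 10 falls at the same floor, but fewer met it and all of those were taken. Added were the 2 tested members of each role class with the smallest p, and Nrsn2. Every tested member of a related family with at least 2 tested members was also added. In all these are 46 genes, most of them described above. Genes outside this rule are marked as chosen after their values were seen or are given only as lists. Transcript length and GC content came from an older mouse annotation (GRCm38) matched by gene identifier for 99.8% of tested genes, and promoters from RefSeq on GRCm38.p6. The alternatives were DESeq2 1.42.0, limma-voom (limma 3.58.1), RLE size factors, no filter, the replicate number as a block, offsets for GC content and length, and each library left out in turn.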

Additional observations from a re-analysis of the deposited data

Results flagged for a closer look

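In each group of 4 libraries, the gap between the highest or lowest library and its nearest neighbour was divided by the range of the group, and a ratio above Dixon's critical value for 4 values marked that library. The groups tested were those of the 46 named genes and of levels summarised over the members. Other members, such as Snrpd3 and Usp39, were not screened in this way. Of 96 groups tested, 11 were marked, and chance alone marks about 1 in 20. The ratio was 0.934 for Bud13 in the control libraries, where library 4 was high at 9.74 CPM. For Ddx39a it was 0.867 in the control libraries, where library 4 was low at 142.5 CPM, and 0.907 in the overexpression libraries, where library 1 was low at 181 CPM against 251 to 258 CPM in the others. Ddx39b had a ratio of 0.945 in the control libraries, with library 3 low at 151 CPM. Ncbp1 had 0.866 in the overexpression libraries, with library 1 low at 70.5 CPM, and Snrpb had 0.852, with overexpression library 3 low at 26.0 CPM. Txnl4a had 0.888 in the control libraries, with library 4 low at 18.9 CPM, and Txnl4b had 0.933, with control library 3 low at 9.01 CPM. Zcrb1 had 0.886 in the overexpression libraries, with library 3 high at 277 CPM. Zrsr2 had 0.905 in the control libraries, with library 4 low at 100.2 CPM. The summed level of all members had 0.843 in the control libraries, with library 4 low at 12852 CPM against 13546 to 13676 CPM.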

How the results depend on the processing

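Over the alternatives, 59 to 65 members were called higher with all libraries in the fit and 53 to 65 with 1 library left out, against 61. The number called lower was 7 or 8 with all libraries and 6 to 8 with 1 left out, against 8. The median log2 fold change stayed between 0.20 and 0.22 with all libraries and between 0.18 and 0.24 with 1 left out. Of the 69 called members, 54 (49 higher and 5 lower) kept their call in each of the 8 fits with 1 library left out, and 64 had the same direction and an adjusted p under 0.05 in the authors' deposited table. Replicate numbers do not pair the libraries: the correlations of same-numbered libraries were -0.102, -0.035, 0.0587 and -0.0769. With the number as a replicate block, 59 members were called higher and 8 lower, with a median of 0.22.

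Of 644 values for the 46 named genes, 602 kept their direction and side of the threshold, 21 lost the call, 4 gained one and 17 changed sign, the last all in the uncalled Prpf38a, Rbm4, Snrpb2 and Tra2a. With offsets for GC content and length Prpf38a was at 0.11 and Tra2a at 0.016, and Rbm4 was at -0.00089 with DESeq2, -0.0016 with RLE size factors and -0.0086 with limma-voom. With 1 library left out, Prpf38a ran from -0.098 to 0.086, Rbm4 from -0.079 to 0.12, Snrpb2 from -0.042 to 0.077 and Tra2a from -0.064 to 0.0071. Offsets for GC content and length ended the calls of Nova1, Rsrc1 and Snrpa (0.25, edgeR adjusted p = 0.0575) and added Prpf38b (0.21, adjusted p = 0.00585), Rbm5 (0.16, adjusted p = 0.0479), Zmat2 (0.17, adjusted p = 0.0486) and Zrsr2 (0.18, adjusted p = 0.0309), and the cause was not tested. Leaving out a library ended calls of Ncbp1, Snrpa, Snrpc, Usp49, Zcrb1 and Zrsr1. Depth limits members near the filter, and the 22 untested members give no comparison.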
